A study of Mus musculus with 6 samples.

Results

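MHC class II-high border macrophages were the cells examined here: 58 of the 57215 cell barcodes that passed the filters, in a single-cell RNA sequencing study of the mouse brain after experimental stroke. C57BL/6 mice aged 6 to 8 weeks had undergone middle cerebral artery occlusion (MCAO, which blocks the main artery to the side of the cerebrum) or sham surgery, and brain cells were taken at 24 h, giving 3 droplet libraries per group. No genotype or allele other than the strain is given, and the labels do not say whether a library is 1 animal or a pool, which brain region it holds, or on which day it was made, so p-values measure the spread between these libraries, which may be partly technical. A barcode was a member when it had at least 300 detected genes and at most 10% mitochondrial UMIs (unique molecular identifiers, each standing for 1 captured RNA molecule), and when its raw UMIs came to at least 6 for Mrc1, Pf4, Cd163, Lyve1, Folr2 and Cbr2 together, at least 5 for H2-Aa, H2-Ab1 and H2-Eb1 together, at most 3 for the microglial genes P2ry12, Tmem119 and Siglech, and at most 2 for the monocyte genes Arg1, Chil3, Plac8 and Ccr2. The members were thus chosen by the UMIs of these 16 genes, whose own values are given as a description. Cells that met every limit except that for class II, with 0 to 4 class II UMIs, are called MHC class II-low border macrophages, and there were 1532 of them.

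Border macrophages are the resident macrophages of the brain's edges, in the meninges, the perivascular spaces and the choroid plexus. They carry the mannose receptor Mrc1 and the chemokine Pf4, and differ from microglia in place and in markers. A fraction of them carries MHC class II, the surface molecule that shows peptides from taken-up protein to CD4 T cells. H2-Aa and H2-Ab1 encode the alpha and beta chains of I-A, H2-Eb1 encodes the beta chain of I-E, Cd74 encodes the invariant chain that guides class II through the cell, and H2-DMa and H2-DMb1 encode the chains of H2-DM, which helps to load the peptide.

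The 3 chain genes that chose the cells lie side by side in the H2 complex of chromosome 17 (mm10, GENCODE vM21 coordinates): H2-Ab1 (ENSMUSG00000073421) at chr17:34257689-34269419 on the plus strand, H2-Aa (ENSMUSG00000036594) at chr17:34282744-34287823 on the minus strand and H2-Eb1 (ENSMUSG00000060586) at chr17:34305867-34316674 on the plus strand. H2-DMa and H2-DMb1 lie in the same complex, at chr17:34119541-34139101 and chr17:34153072-34160230. Class II genes share a set of promoter boxes, the last of which, the Y box, is read by the NF-Y factor. The 150 bases before the start of H2-Aa (chr17:34287824-34287973, minus strand) and of H2-Eb1 (chr17:34305717-34305866, plus strand) are shown from RefSeq on GRCm38.p6, the same assembly as mm10, because both genes define the cells and moved together below. Capitals mark the letters TGATTGG, a form of the Y box.
H2-Aa: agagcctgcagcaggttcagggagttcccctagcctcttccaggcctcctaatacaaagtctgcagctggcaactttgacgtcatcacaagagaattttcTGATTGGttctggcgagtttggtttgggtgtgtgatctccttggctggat
H2-Eb1: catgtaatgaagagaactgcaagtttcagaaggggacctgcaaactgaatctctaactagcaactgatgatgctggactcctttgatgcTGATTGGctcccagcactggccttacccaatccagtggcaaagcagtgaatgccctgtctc
These letters, or CCAATCA on the other strand, were in the 250 bases before the start of 7 of the 8 class II genes found in the table, and in 7.23% of 32851 such windows over all genes. H2-DMa was the gene without them. The starts were those of RefSeq, and the stretches searched for H2-DMa, which included chr17:34122682-34122831, lie inside the gene as placed above by GENCODE. The bases before its GENCODE start were thus not searched. No stretch was available for H2-Ab1. A match describes the letters only.

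Class II UMIs set the 58 cells apart in these libraries with few cells near the limit. Of the 1590 border macrophages, 1504 had 0 to 2 class II UMIs, 28 had 3 or 4, just outside the limit, and 4 had 5 or 6, just inside it. The members reached 109, 200 and 243 UMIs in the sham libraries 1, 2 and 3, and 25, 73 and 111 in the MCAO libraries 1, 2 and 3. In the low cells class II was found little more often than in cells of another type. A UMI of H2-Aa was found in 10.6% of low cells and in 8.03% of 29319 barcodes gated as endothelial, which should lack it in the main, at median depths of 2589 to 4312.5 and 2197.5 to 2908 UMIs. For Cd74, which did not choose cells, the shares were 58 of 58 members, 46.9% of the low cells and 26.2% of the endothelial barcodes.

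**Figure D1:**
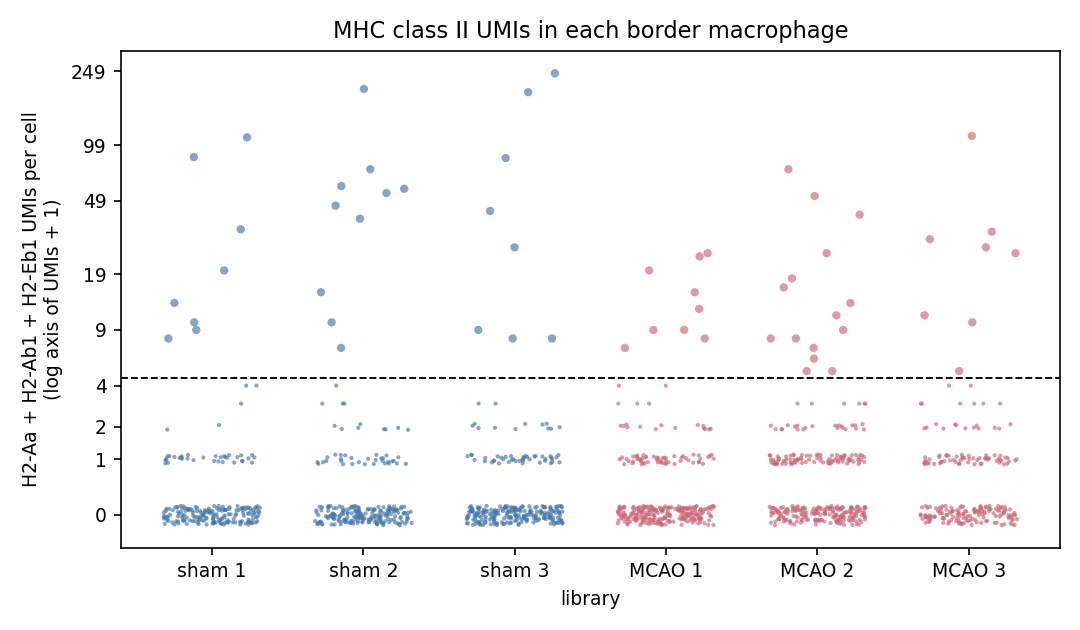
Summed UMIs of H2-Aa, H2-Ab1 and H2-Eb1 in each of the 1590 border macrophages (points), by library, on a log axis of UMIs + 1. The dashed line lies between 4 and 5 UMIs; the 58 cells above it are the members, of which 10 sham and 3 MCAO cells had 50 UMIs or more.

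Pf4 was found in 57 of 58 members and Mrc1 in 86.2% (95% exact interval 74.6 to 93.9%), shares that the choice of cells helped to fix; Cd74, which it did not use, was found in 58. Markers of other class II-bearing cells were few and not all at 0. Of 12 dendritic cell markers 6 had 0 UMIs and the rest 29 in all, 10 of them Batf3, with Fscn1 in 5 sham members and 1 MCAO member. Of 7 B cell markers that could be counted, 5 had 0 UMIs and the rest 16 in all, 10 of them Cd79b, in 3 sham and 4 MCAO members. Defining genes at 0 included Flt3, Zbtb46, Xcr1, Clec9a and Ccr7 of dendritic cells, and Cd79a, Ms4a1 and Pax5 of B cells. Cd209a, another dendritic cell marker, was not among the markers at 0. At this depth a gene of low level can be missed in a cell that expresses it. Members differed from the low cells in the border genes they carried. Lyve1, the hyaluronan receptor of a perivascular and meningeal subset, was found in 7 of 58 members, or 12.1% (95% exact interval 4.99 to 23.3%), against 60.7% (95% exact interval 58.2 to 63.2%) of the low cells and 1.24% of endothelial barcodes. Folr2, a folate receptor, was in 24.1% against 56.3%, Cbr2, a carbonyl reductase, in 27.6% against 49.2%, and Cd163, the hemoglobin scavenger receptor, in 37.9% against 53.2%. With each cell thinned to 2000 UMIs (2 members and 225 low cells were shallower), Lyve1 stood at 10.7% of 56 members and 53.0% of 1307 low cells. Lyve1 was found in 0, 0 and 2 members of sham libraries 1 to 3 and in 1, 3 and 1 of MCAO libraries 1 to 3. The intervals pool cells over libraries and cover counting error only. These genes helped to choose both classes, so the shares are a description.

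**Figure D2:**
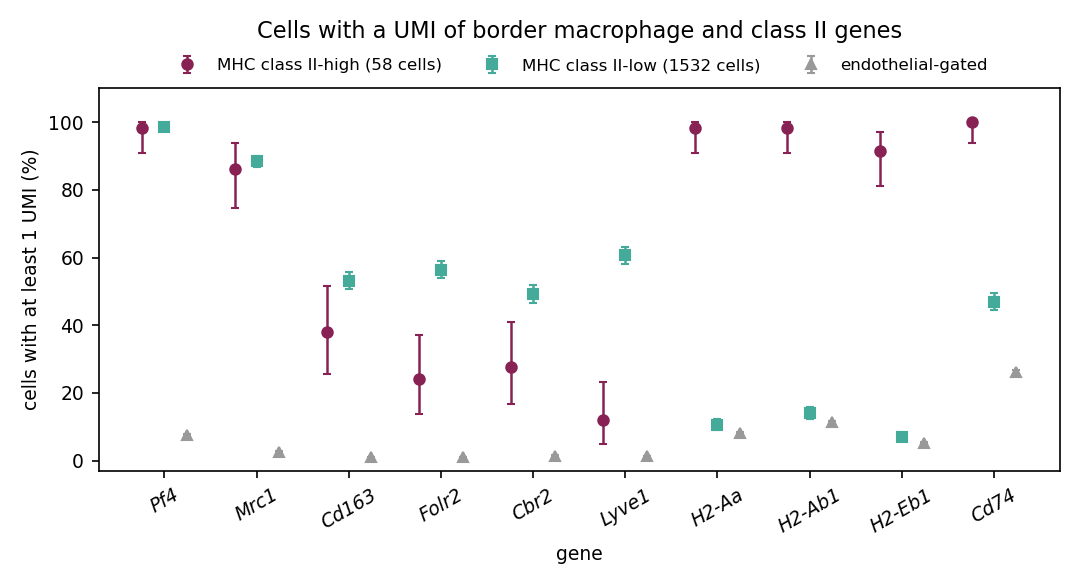
Share of cells with at least 1 UMI of each gene (percent, exact 95% intervals, all 6 libraries pooled) in the members, the low cells and endothelial-gated barcodes. Lyve1, Folr2 and Cbr2 sit lower in the members (12.1, 24.1 and 27.6%) than in the low cells. Pf4 and Mrc1 were found in 98.3 and 86.2% of members and in 98.7 and 88.4% of low cells. The intervals cover counting error only. The level of Mrc1 was lower in the members, at 606 against 1304 CPM.

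Levels of genes outside the gates also differed between the classes. Levels are in CPM, a library's summed counts scaled to a common total of UMIs, after TMM scaling (a scaling that evens out the libraries' composition), and the values here are means over the 6 libraries, given as a description since the gates made the classes. Class II partners were higher in the members of 6 of 6 libraries: Cd74 at 14292 against 328 CPM, H2-DMa at 626 against 50.3 CPM and H2-DMb1 at 451 against 69.7 CPM in members and low cells. So was Cx3cr1, the fractalkine receptor of microglia and many macrophages, at 704 against 278 CPM. Other genes with this order were Cd52 at 1629 against 338 CPM, the inhibitory lectin Cd72 at 341 against 52.4 CPM, the Fc receptor Fcgr4 at 288 against 61.4 CPM, the cathepsin Ctss, which trims the invariant chain, at 4763 against 2531 CPM, and the class I light chain B2m at 7474 against 4555 CPM. Genes lower in the members of 6 of 6 libraries were the scavenger receptor Stab1 at 222 against 634 CPM, the lectin Clec4n at 225 against 588 CPM, the antioxidant enzyme Gpx3 at 148 against 517 CPM, the Fc receptor Fcgrt at 399 against 850.0 CPM and the endocytic adaptor Dab2 at 697 against 1246 CPM. Mrc1, which helped to choose both classes, was lower in the members of 6 of 6 libraries as well, at 606 against 1304 CPM. Before TMM scaling, the 6 border genes of the gate summed to a median of 3106 CPM in members and 6886 CPM in low cells of sham. In MCAO the medians were 3750 and 6268 CPM.

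The number of members was similar in sham and MCAO libraries. The sham libraries held 8, 10 and 8 members and the MCAO libraries 9, 15 and 8, in 8352 to 9780 and 7931 to 11465 kept barcodes. Their share of kept barcodes was 0.0982% ± 0.0195 (SD, n = 3) in sham and 0.105% ± 0.0285 in MCAO (exact two-sided permutation test, p = 0.7). Among border macrophages their share averaged 3.60% ± 0.67 over the sham and 3.70% ± 0.893 over the MCAO libraries (same exact test, p = 0.9); 3 libraries against 3 cannot go below p = 0.1. The direction of both differences turned under several other limits, and with no monocyte UMI allowed the shares of kept barcodes were 0.0864% ± 0.00815 and 0.0567% ± 0.0194 (exact permutation p = 0.1). With library 2 of MCAO left out, the difference in the share of border macrophages moved from 0.0993 to -0.381 percentage points.

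Members were also unlike one another. Summed over a cell, class II took a median of 53.0, 125 and 110 UMIs per 10000 in sham libraries 1 to 3 and 25.2, 21.5 and 48.5 in MCAO libraries 1 to 3, and 6 of 26 sham and 12 of 32 MCAO members had 5 to 9 class II UMIs. All of the MCAO medians were below the lowest sham median. The median member had 2929.5, 4168 and 3466 UMIs in the sham libraries and 4424, 5750 and 4214.5 in the MCAO libraries, and raw limits let in a deeper cell at a lower share. With the limit at 10 class II UMIs, 20 sham and 20 MCAO cells remained. Class II then took 178 of 10000 pooled UMIs in sham and 54.8 in MCAO, with 50 class II UMIs or more in 10 sham and 3 MCAO cells. The same 3 genes set this limit, so these values are a description. At least 1 UMI of the monocyte genes (Arg1, Chil3, Plac8, Ccr2) was found in 3 of 26 sham and 15 of 32 MCAO members. Pf4, which platelets also carry, made up 56.4% of the border gene UMIs in sham and 78.1% in MCAO, and 3 MCAO members and 0 sham members passed the border limit on Pf4 alone. Of the platelet genes Ppbp, Gp9 and Itga2b only Ppbp was found, with 3 UMIs in 2 MCAO members. In a simulation-based call of doublets, 2 members were called, both in MCAO library 2.

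Raw counts were summed over the members of each library (27156 to 91104 UMIs) and compared between MCAO and sham with edgeR's quasi-likelihood test. At this depth 617 genes could be tested, of which 43 were higher and 40 lower after MCAO at an adjusted p under 0.05, which is 13.5% of those tested, 6.97% higher and 6.48% lower. Log2 changes below are MCAO over sham and carry their SE after ±; where a pair of values stands in parentheses, the log2 change comes first and the adjusted p second. The 40 lower genes include H2-Aa, H2-Ab1 and H2-Eb1, which chose the cells; over the 612 tested genes that did not, 43 were higher and 37 lower (13.1%). The median log2 change of the 617 genes was 0.01. The smallest adjusted p belonged to mt-Atp8, a mitochondrial gene, from 2411 to 300 CPM (-2.99, 0.000359), which fell in the low cells too (-3.18, 0.00863). Of 12 provisional or clone genes tested, 4 rose and 5 fell, a larger share than over all genes. AY036118 (1.78, 0.00115) and Gm42418 (1.60, 0.00115) rose, and did so in the low cells too. The naming rule left such genes out, and what moved them was not tested. The low-count filter keeps a gene that is high enough in as many libraries as a group holds. A gene low in 1 group can thus enter through the other group alone, while a gene low in both is not tested. The counts of risen and fallen genes per list and the list medians below lean to such genes and are a description. Groups did not overlap for 204 of the 617 (33.1%). With no filter on low counts, which shifted the 617 genes' log2 changes by a median of 0.26, 81 genes were higher and 14 lower. Without MCAO library 1 the calls fell to 22 higher and 10 lower, without MCAO library 2 to 29 and 17, without sham library 3 to 32 and 26, and with no monocyte UMI allowed (40 cells) to 11 and 3. Of the named genes below, Capg, Cdkn1a, Hmox1, Sod2, Hspa1b, Srgn, Nme1, Ldha and Cx3cr1 kept their call in every alternative that tested them. The others of the 45 named genes taken through the alternatives lost it under at least 1. The genes that kept it were tested in 11 (Sod2) to 17 (Srgn) of 18 alternatives, Capg and Nme1 in 12 and Hspa1b in 13. An alternative in which a gene missed the low-count filter does not count against it here.

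Class II genes were lower in the members after MCAO. The 3 chain genes, which chose the cells and so carry no test, stood at 4340.3, 4962 and 6741 CPM in the sham libraries and 859, 1083 and 2409.9 CPM in the MCAO libraries for H2-Aa. H2-Ab1 was at 4261, 4089 and 7572 CPM in the sham libraries and 1022, 1147 and 3307 CPM in the MCAO libraries. H2-Eb1 was at 2762, 2875 and 5304 CPM in the sham libraries and 756, 954 and 1345 CPM in the MCAO libraries. The groups did not overlap for any of the 3 genes, with MCAO library 3 the highest of its group each time. Of the class II presentation list, 6 of 19 genes in the gene table could be tested. Of these 3 fell and 0 rose, with a median log2 change of -0.71, while 6.48% of all 617 genes tested were lower. DESeq2, another test on the same sums, called 1 of the 6, and H2-DMa and H2-DMb1 lost their call there. Cd74 was at 14875, 14248 and 27700.4 CPM in the sham libraries and 9668, 7742 and 11517 CPM in the MCAO libraries. Its lowest sham library stood above its highest MCAO library, and the log2 change was -0.98 ± 0.27, adjusted p = 0.0346. H2-DMa, at 631, 979.7 and 831 CPM in the sham libraries and 449.7, 332 and 532 CPM in the MCAO libraries, fell by 0.97 ± 0.29 on the log2 scale (adjusted p = 0.0432), and its groups did not overlap. H2-DMb1 was at 355, 618 and 990.4 CPM in the sham libraries and 164, 161 and 420.3 CPM in the MCAO libraries, with a log2 change of -1.56 ± 0.43, adjusted p = 0.0346; sham library 1 and MCAO library 3 overlapped.

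The other 3 class II genes tested did not pass. Ctss was at 5721, 5836 and 4920.3 CPM in the sham libraries and 4252, 4064 and 3783 CPM in the MCAO libraries, without overlap, and its log2 change of -0.44 had an adjusted p of 0.0887. The legumain gene Lgmn, another protease of the endolysosome, moved by 0.32 (adjusted p = 0.333), and the costimulatory ligand Cd86 by -0.25 (adjusted p = 0.684). Ciita, the class II transactivator, had 0 UMIs in the 58 cells, as had H2-Ob and H2-Eb2. The fall of the 3 called genes was not held by every library: Cd74 had an adjusted p of 0.0884 without sham library 3, 0.133 without MCAO library 1 and 0.139 without MCAO library 2, and its change was -0.31 with the border limit at 10 (0.627). For H2-DMb1 the adjusted p was 0.17 without MCAO library 1, 0.189 without MCAO library 2, 0.0695 without sham library 2 and 0.131 without sham library 3, and for H2-DMa 0.144, 0.227, 0.123 and 0.0851. Over all cells of a library, the 3 chain genes together took 539 to 707 CPM in sham and 814 to 972 CPM in MCAO. Dendritic cell markers in the members summed to 110, 147 and 249.7 raw CPM in the sham libraries and 42.4, 76.8 and 84.0 in the MCAO libraries, in order of size and on 29 UMIs in all, without overlap, and to 172 to 184 and 158 to 181 CPM over all cells. Their part in the lower class II level was not tested. The fall of Cd74 also lost its call with no monocyte or no microglial UMI allowed, and with each cell thinned to 2000 UMIs. Thinning left 13 sham and 13 MCAO members and 130 genes to test. Over the 18 alternatives the log2 change of Cd74 ran from -1.17 to -0.31, with 0 reversals. The part of depth, of free class II RNA and of the raw limit in the members' lower level was not tested beyond the limits named here.

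**Figure D3:**
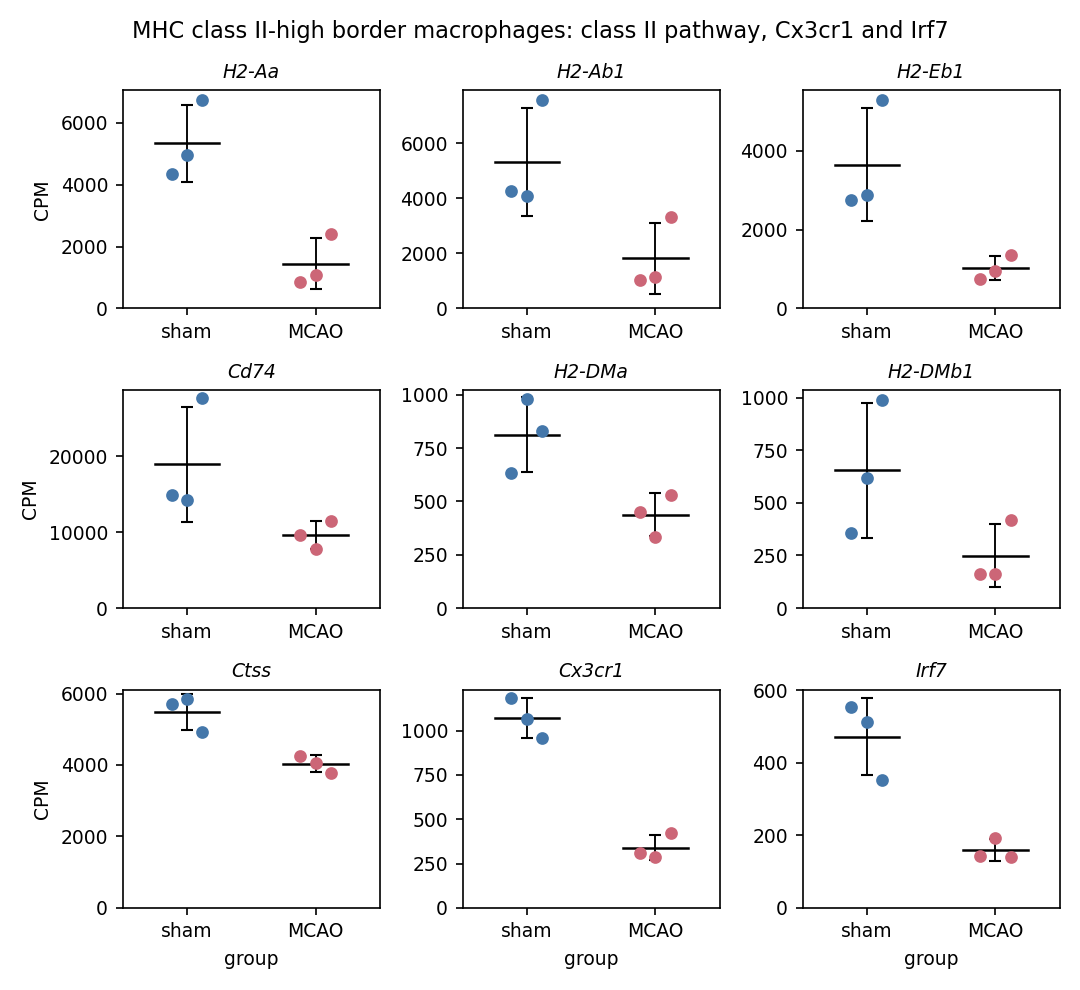
CPM of class II pathway genes, Cx3cr1 and Irf7 in the members, by group; points are the 3 libraries, the line and bar their mean and SD, and each axis starts at 0. H2-Aa, H2-Ab1, H2-Eb1, Cd74, H2-DMa, Ctss, Cx3cr1 and Irf7 do not overlap between the groups, and H2-DMb1 does.

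Of 7 class I genes tested, 1 fell, while over all 617 genes tested 13.5% were called and 6.48% were lower. It was H2-K1, a classical class I heavy chain, at 2446, 2023 and 1502 CPM in the sham libraries and 1042, 890.0 and 1289 CPM in the MCAO libraries. Its log2 change was -0.91 ± 0.23, adjusted p = 0.023. H2-K1 lost its call in 9 of 18 alternatives and reversed in 1, to 0.39 (0.608) with each cell thinned to 2000 UMIs. Its light chain B2m moved by -0.48 (adjusted p = 0.108) and did not pass. In the interferon response list 5 of 24 genes could be tested, of which 3 fell and 0 rose, with a median log2 change of -0.88. DESeq2 called 0 of the 5. Irf7, the factor that amplifies the type I interferon response, was at 552, 511 and 351 CPM in the sham libraries and 143, 193 and 140.1 CPM in the MCAO libraries and had a log2 change of -1.49 ± 0.33, adjusted p = 0.0123. All of its sham values were above all of its MCAO values. Rtp4, an interferon-induced chaperone of receptors, moved by -1.40 ± 0.34, adjusted p = 0.0199, from a mean of 496 to 181 CPM, and Bst2 (tetherin), by -0.88 ± 0.25, adjusted p = 0.04. Ifitm3, an antiviral membrane protein, was at 2531 ± 356 in sham and 2118 ± 294 CPM in MCAO and did not pass (adjusted p = 0.366).

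Among genes that mark macrophages, the receptors for fractalkine and for colony-stimulating factor 1 fell. Cx3cr1 was at 1184, 1065 and 958 CPM in the sham libraries and 307, 289.5 and 420.3 CPM in the MCAO libraries. Every sham library was above every MCAO library, and the log2 change was -1.69 ± 0.26, adjusted p = 0.00198. Csf1r, on which macrophages and microglia depend for survival, was at 1381, 1129 and 1054 CPM in the sham libraries and 552, 515 and 785 CPM in the MCAO libraries and moved by -0.97 ± 0.25, adjusted p = 0.0207. These were 2 of 15 macrophage genes tested, with 0 higher, a share near the 13.5% called over all 617 genes tested. The count is thus no result about macrophage genes as a list. Lyz2, lysozyme, was at 11073 ± 2316 in sham and 11345 ± 1713 CPM in MCAO, with a log2 change of 0.04 (adjusted p = 0.954). In the border macrophage list 15 of 30 genes were tested, of which 1 rose and 1 fell, again near the share over all genes. Tgfbi, a matrix protein, rose from 339.9 to 1095 CPM (1.77 ± 0.40, adjusted p = 0.0137), and Ms4a7, a membrane protein that marks border macrophages against microglia, fell from 902 to 418 CPM (-1.11 ± 0.34, adjusted p = 0.0492). Of the border genes that chose the cells, Pf4 was at 3038, 1555 and 1406 CPM in the sham libraries and 2657, 4268 and 2522 CPM in the MCAO libraries and Mrc1 at 789, 1108 and 383 CPM in the sham libraries and 368, 483 and 504 CPM in the MCAO libraries; both overlapped between the groups. The largest Pf4 count of a cell was 20 in sham and 172 in MCAO.

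Further falls were found in Fam174a, from 323 to 62.3 CPM (-2.00 ± 0.50, adjusted p = 0.0206), and the transcription factor Mef2c, from 511 to 161 CPM (-1.53 ± 0.33, adjusted p = 0.0119). Tnfaip8l2, an inhibitor of immune receptor signalling, went from 339.5 to 123 CPM (-1.56, adjusted p = 0.0199), the RNA-binding protein gene Celf2 fell (-1.56, 0.0363) and the myeloid nuclear antigen gene Mnda went from 283 to 113 CPM (-1.42, 0.0456). Clec4a3, a C-type lectin, fell from 417 to 183 CPM (-1.14, 0.0432). The 6 named here rest on 14 to 34 UMIs in the MCAO members.

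Iron and heme genes rose where they were called. Of 23 genes of the NRF2, heme and iron list in the gene table, 8 could be tested. Of these 5 rose and 0 fell, with a median log2 change of 1.15, while 6.97% of all 617 genes tested were higher. Hmox1 and Sod2 were low in sham, so the count and median lean to genes high in MCAO. Hmox1, the heme oxygenase that opens the heme ring and frees its iron, was at 78.9, 63.9 and 128 CPM in the sham libraries and 818, 783 and 897 CPM in the MCAO libraries. The highest sham value was far below the lowest MCAO value, and the log2 change was 3.20 ± 0.36, adjusted p = 0.000406. A UMI of Hmox1 was found in 6 of 26 sham and 24 of 32 MCAO members, or 23.1% and 75.0%, against 5.17% and 17.7% of endothelial barcodes. Fth1, the ferritin heavy chain that stores iron, was at 6076, 7944 and 7189 CPM in the sham libraries and 20073, 18293 and 29030.5 CPM in the MCAO libraries. Its groups did not overlap and its log2 change was 1.66 ± 0.23, adjusted p = 0.00115; with no monocyte UMI allowed it was 1.14 (0.256). Sod2, the mitochondrial superoxide dismutase, moved from 51.2 to 489.5 CPM (3.20 ± 0.60, adjusted p = 0.00496), on 5 UMIs in sham and 80 in MCAO. Mt1, a metallothionein, rose from 617 to 1507 CPM (1.32 ± 0.26, adjusted p = 0.00747), and the ferritin light chain gene Ftl1 passed as well.

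The glycolytic enzymes that were called rose with them. Of the 25 genes in the hypoxia and glycolysis list 6 could be tested. Of these 4 rose and 0 fell, with a median log2 change of 1.74, against 6.97% higher over all 617 genes tested. Genes low in both groups were not tested, so this count and median lean to genes high in MCAO. Pkm, pyruvate kinase, was at 158, 319 and 159.7 CPM in the sham libraries and 1145, 922 and 785 CPM in the MCAO libraries, with a log2 change of 2.06 ± 0.33, adjusted p = 0.00219. Ldha, which turns pyruvate into lactate, was at 78.9, 170.4 and 159.7 CPM in the sham libraries and 429, 515 and 532 CPM in the MCAO libraries, a change of 1.76 ± 0.34, adjusted p = 0.00569. Neither gene overlapped between the groups. Eno1, enolase, moved from 172 to 684 CPM (1.96, adjusted p = 0.0125) and Gapdh from 266 to 948 CPM (1.73, 0.0115).

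**Figure D4:**
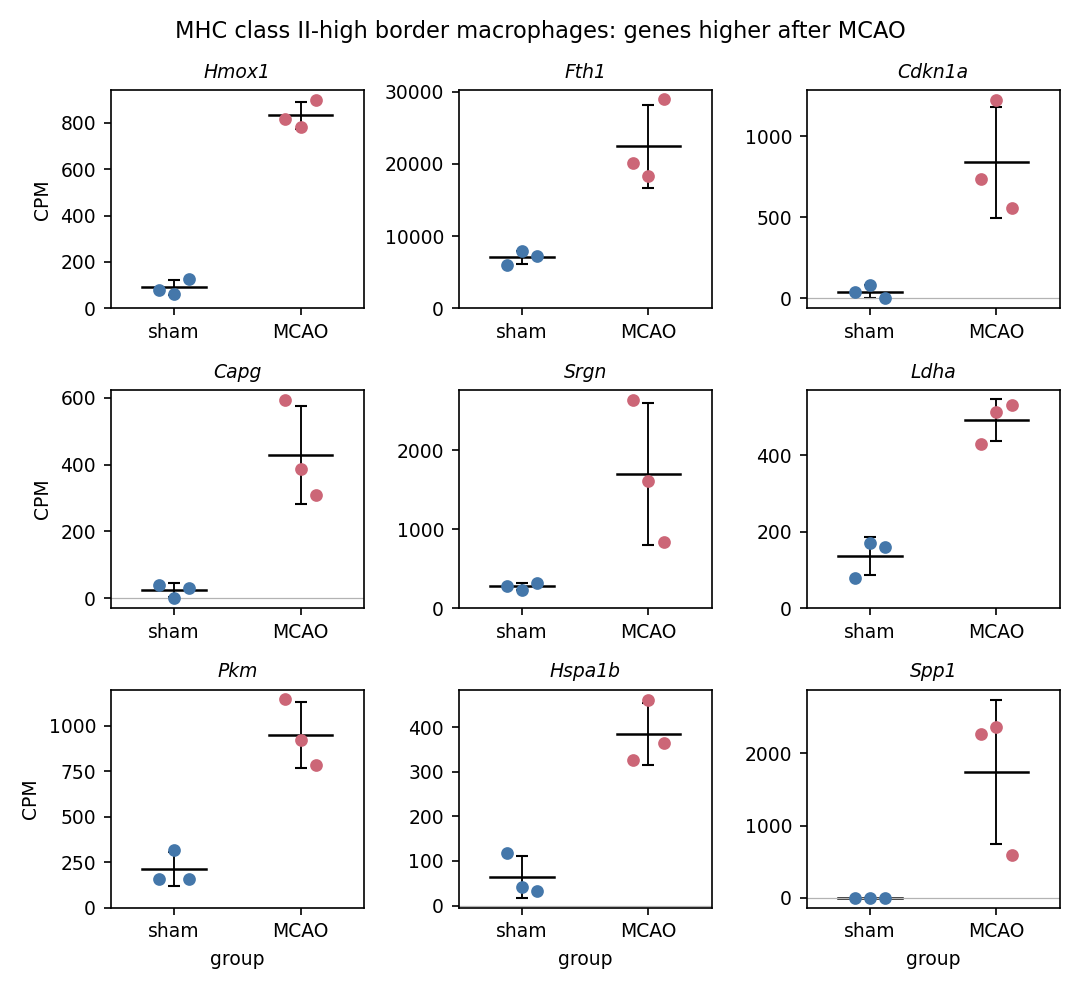
CPM of 9 genes higher after MCAO in the members, by group; points are the 3 libraries, the line and bar their mean and SD, and each axis starts at 0. None of the 9 overlaps between the groups; Hmox1 goes from 90.2 to 832 CPM and Spp1 from 0 UMIs in sham.

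Chemokine genes rose where they were called. Of the 30 genes in the cytokine list 10 could be tested. Of these 4 rose and 0 fell, with a median log2 change of 1.24, against 6.97% higher over all 617 genes tested. Cxcl2, a ligand of the neutrophil receptor Cxcr2, was at 39.5, 42.6 and 447 CPM in the sham libraries and 2739, 1490.5 and 1065 CPM in the MCAO libraries. Sham library 3 stood well above the other sham libraries and still below each MCAO library (3.38 ± 0.60, adjusted p = 0.0041; 0.176 without sham library 1 and 0.102 without sham library 2). Ccl6 was at 118, 277 and 703 CPM in the sham libraries and 1758, 1887 and 2326 CPM in the MCAO libraries, without overlap (2.42 ± 0.38, adjusted p = 0.00203), and Ccl9 went from 277 to 1161 CPM (2.11 ± 0.47, adjusted p = 0.0127). Ccl2, the main ligand of the monocyte receptor Ccr2, was at 631, 1193 and 1054 CPM in the sham libraries and 3516, 2777 and 1093 CPM in the MCAO libraries; sham library 2 and MCAO library 3 overlapped, and the call (1.34 ± 0.37, adjusted p = 0.0336) was lost in 5 of the 6 fits that left out a library, the one without MCAO library 3 keeping it. Ccl12, another ligand of Ccr2, was at 4814, 3450.3 and 1949 CPM in the sham libraries and 838, 2273 and 2158 CPM in the MCAO libraries and did not pass (-0.94, 0.104). C5ar1, the receptor for complement fragment C5a, rose from 455 to 905 CPM (1.0 ± 0.25, adjusted p = 0.0206).

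Other genes with large rises fell into no single list. Capg, an actin-capping protein, was at 39.5, 0 and 31.9 CPM in the sham libraries and 593, 386 and 308 CPM in the MCAO libraries, on 2 UMIs in sham and 76 in MCAO, with a log2 change of 4.29 ± 0.67, adjusted p = 0.00198. Cdkn1a, the cell cycle inhibitor p21, was at 39.5, 85.2 and 0 CPM in the sham libraries and 736, 1222 and 560.4 CPM in the MCAO libraries, with a log2 change of 4.12 ± 0.58, adjusted p = 0.00115; a UMI was found in 3 of 26 sham and 24 of 32 MCAO members. Srgn, the granule proteoglycan serglycin, was at 276, 234 and 319 CPM in the sham libraries and 2637, 1608 and 841 CPM in the MCAO libraries (2.64 ± 0.41, adjusted p = 0.00198). None of these genes overlapped between the groups. Lgals3, galectin-3, was at 0, 21.3 and 128 CPM in the sham libraries and 1308, 268 and 252 CPM in the MCAO libraries (3.54 ± 0.97, adjusted p = 0.032), but 1 cell gave 49 of its 98 MCAO UMIs, and the adjusted p was 0.335 without sham library 1 and 0.149 without sham library 3. Hspa1b, an inducible Hsp70, was at 118, 42.6 and 31.9 CPM in the sham libraries and 327, 461 and 364 CPM in the MCAO libraries (2.70 ± 0.49, adjusted p = 0.00419). Lgals1, galectin-1, went from 718 to 1387 CPM (0.95, 0.0187). Nme1, a nucleoside diphosphate kinase, went from 66.4 to 418 CPM (2.53, 0.0041), the scavenger receptor Msr1 from 73.5 to 379 CPM (2.16, 0.0135), and Cstb, a cathepsin inhibitor, from 238 to 812 CPM (1.83, 0.00457). Cst3, a secreted cathepsin inhibitor, fell from 8520.3 to 4140.0 CPM (-1.04, 0.0041).

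Spp1, osteopontin, had 0 UMIs in the 26 sham members and 352 in the 32 MCAO members, at 2269, 2359 and 588 CPM in MCAO libraries 1 to 3. Against a floor of 3 UMIs over the sham group this was at least 70.5-fold higher. Its level in the MCAO members was 28.5% of that over all cells of the same libraries, and a UMI was found in 96.9% of the MCAO members against 90.3% of MCAO endothelial barcodes; free RNA and expression in the members cannot be told apart by these shares. Apoe, the apolipoprotein and the most abundant gene named, was at 64828, 45195 and 31023 CPM in the sham libraries and 26348, 20598 and 30599.7 CPM in the MCAO libraries, without overlap, and did not pass (-0.86, 0.0639).

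Several lists had few or no calls in the members, where 13.5% of all genes tested were called. Of 15 immediate early genes tested, edgeR called 0, with 3 at an unadjusted p under 0.05 and 0 called by DESeq2, and Fos stood at 2678 ± 1363 in sham and 2722 ± 451 CPM in MCAO (mean ± SD, n = 3). Complement had 1 of 5 tested (C5ar1), and C1qb was at 7799 ± 559 in sham and 7663 ± 719 CPM in MCAO. Of 16 lysosomal genes, Cstb rose and Cst3 fell. In the NF-kB feedback list Nfkbia and Sod2 rose among 3 tested; Nfkbia, the inhibitor that NF-kB induces against itself, went from 558 to 1367 CPM (1.40, 0.0314). Of 8 heat shock genes Hspa1b rose, and of 7 ER stress genes Hspa5, the chaperone BiP, from 809.7 to 1399.6 CPM (0.78, 0.022). Of the 23 genes in the matrix and proteases list, 0 reached the depth for a test. Counts were simulated with the members' depth and the same spread for all genes (biological coefficient of variation 0.2). On these the test recovered 96.1% of 4-fold and 52.6% of 2-fold changes. Genes of larger spread were not simulated. A change of 2-fold in a gene without a call was thus often not detectable.

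With 1 library left out, 29 named genes lost their call in at least 1 of the 6 fits, 5 of them in 1 fit only. In the 90 fits that lost a call, the log2 change was 0.624 to 1.47 times that with all libraries, with 1 replicate fewer in each. It moved by over 1.5 times in 2 of them, Cd74 without sham library 3 (-0.62) and Nfkbia without sham library 2 (0.87). Leaving out sham library 1, Lgals3, Cxcl2, Ccl9, Fam174a, Celf2, Mnda, Rtp4, H2-K1, Ms4a7, Csf1r, Spp1, Ccl2, Bst2 and Hspa5 did not pass (adjusted p of 0.0538 to 0.335). Without sham library 2, Cxcl2, Ccl9, Fam174a, Tnfaip8l2, Irf7, H2-DMa, H2-DMb1, Ms4a7, Spp1, Ccl2, C5ar1, Bst2, Nfkbia, Hspa5 and Clec4a3 did not pass (adjusted p of 0.0531 to 0.164). With sham library 3 left out, Lgals3, Msr1, Fam174a, Tnfaip8l2, Celf2, Mnda, Cd74, H2-DMa, H2-DMb1, Spp1, Ccl2, C5ar1, Eno1, Nfkbia, Hspa5, Clec4a3 and Sparc did not pass (adjusted p of 0.0539 to 0.206). Leaving out MCAO library 1, Msr1, Ccl9, Fam174a, Tnfaip8l2, Celf2, Mef2c, Irf7, Mnda, Rtp4, Cd74, H2-DMa, H2-DMb1, H2-K1, Tgfbi, Ms4a7, Csf1r, Lgals1, Ccl2, C5ar1, Bst2, Gapdh, Nfkbia, Hspa5 and Clec4a3 did not pass (adjusted p of 0.0517 to 0.184). Without MCAO library 2, Msr1, Ccl9, Tnfaip8l2, Celf2, Mnda, Rtp4, Cd74, H2-DMa, H2-DMb1, H2-K1, Ms4a7, Csf1r, Lgals1, Ccl2, C5ar1, Bst2, Nfkbia, Hspa5 and Clec4a3 did not pass (adjusted p of 0.0624 to 0.24). With MCAO library 3 left out, Clec4a3 did not pass (adjusted p of 0.0941).

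The low cells moved the same way for most of these genes. Their sums were deeper (641943 to 1160652 UMIs), and 1135 of 7733 genes rose and 988 fell, 27.5% of those tested (14.7% higher, 12.8% lower). Of the 80 called genes that did not choose the cells, 69 were called with the same sign in the low cells, 1 (Cd74) with the opposite sign and 10 were not called. Whether a change itself differed was tested as an interaction of class and group in 1 edgeR fit over both classes. Of 5689 genes, 16 differed (0.281%; 5 higher, 0.0879%, and 11 lower, 0.193%, in members), of which 4 (H2-Aa, H2-Ab1, H2-Eb1 and Pf4) chose the cells and are left aside.

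Cd74 moved in opposite directions. It fell in the members and rose in the low cells from 247 to 408 CPM (0.72 ± 0.10, adjusted p = 5.03e-06), a difference of -1.49 ± 0.22, adjusted p = 1.45e-08. It held in 18 of 20 alternatives, and was -0.99 (0.509) with the border limit at 10 and -0.68 (0.997) with no microglial UMI allowed. A UMI of Cd74 was found in 37.3% of sham and 55.1% of MCAO low cells, and in 17.8% and 35.6% of endothelial barcodes; the part of free RNA in the low cells' rise was not tested. H2-DMa and H2-DMb1 fell in the low cells too, by 0.68 and 0.78 on the log2 scale, and their change did not differ by this test (difference -0.15 and -0.62, adjusted p = 1).

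Hspa1b rose in the members and was 126 ± 36.4 in sham and 145 ± 50.1 CPM in MCAO in the low cells (0.20, 0.747), a difference of 2.75 ± 0.59, adjusted p = 0.00238. Fth1 rose in both, by 1.66 and 0.70 on the log2 scale, a difference of 1.10 ± 0.20, adjusted p = 7.04e-05, which was -0.02 with no monocyte UMI allowed. Tgfbi rose by 1.77 and 0.50 (1.41 ± 0.35, adjusted p = 0.0244; 1, 0.184 and 0.671 without MCAO library 1 or 2 or sham library 2). The interferon-induced Ifi27l2a was at 1578, 3109.5 and 1917 CPM in the sham libraries and 1574, 1941 and 560.4 CPM in the MCAO libraries in the members, overlapping between groups, while in the low cells it rose from 1097 to 3239.9 CPM, a difference of -2.11 ± 0.27, adjusted p = 5.14e-10. For the other large rises, Hmox1, Cdkn1a, Capg and Srgn, the change did not differ between the classes by this test (adjusted p = 0.971, 1, 1 and 0.574), and for Cx3cr1 the fall of 1.69 against 0.61 gave 0.803. The fit pools classes of unequal spread (biological coefficient of variation 0.2 in members and 0.0894 in low cells). With a weight per class in limma's voom, 4 genes were higher and 10 lower, of which 3 and 6 were called in the main fit. Tgfbi lost its call there. Over the 617 genes testable in members, 0 were higher and 2 lower, Cd74 being 1 of them. In that fit Hspa1b, Fth1, Tgfbi and Ifi27l2a lost their call.

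**Figure D5:**
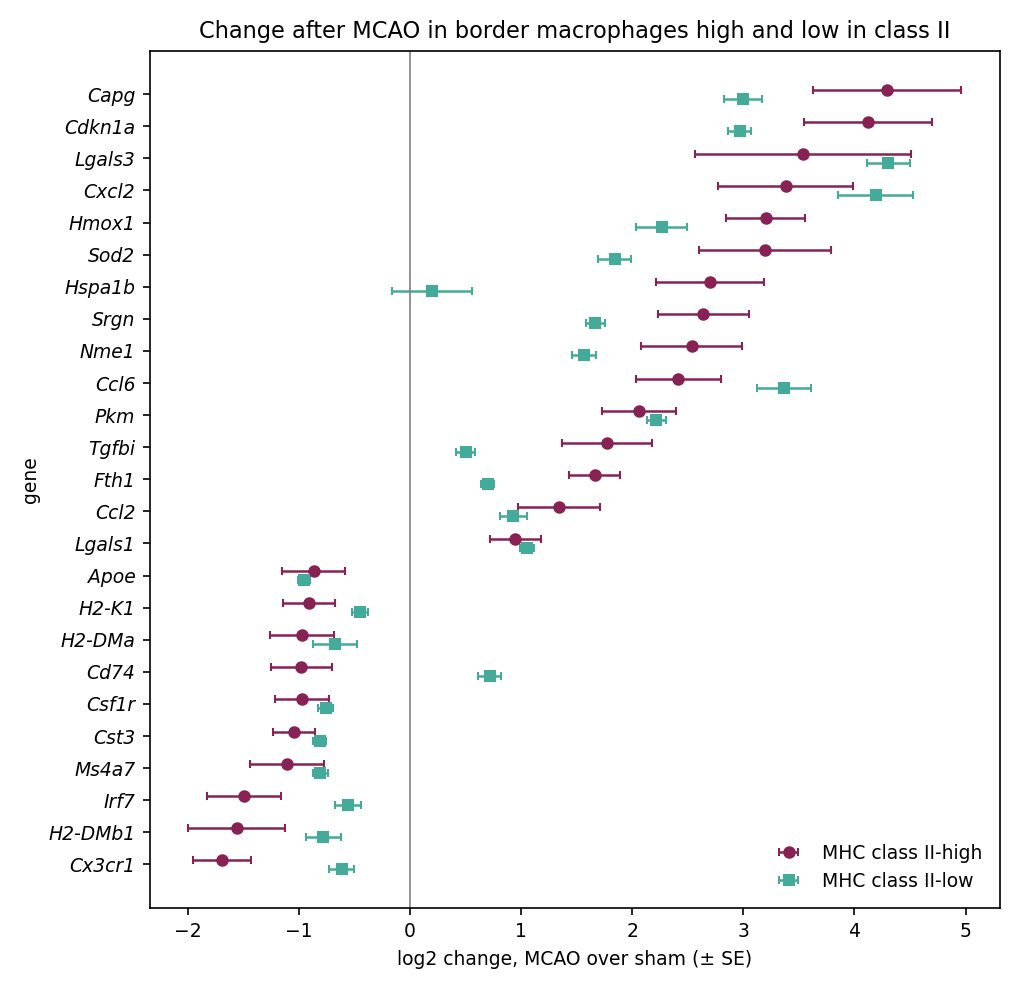
Log2 change of MCAO over sham in the members (circles) and the low cells (squares) for 25 named genes, with SE as bars. Most pairs lie on the same side of 0; Cd74 is at -0.98 in the members and 0.72 in the low cells, and Hspa1b at 2.70 and 0.20.

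Markers of other cells in the members moved with the groups in part. Endothelial markers summed to 2753 to 5155 CPM in sham and 1623 to 3029.5 CPM in MCAO members (raw CPM over 12 genes, all found), against 23991 to 24389 and 12060.1 to 13020.0 CPM over all cells, and 1 of them, Itm2a, fell, log2 change -2.10 ± 0.45, adjusted p = 0.0107. Astrocyte markers, all 12 found, took 73.6 to 242 CPM in sham and 582 to 784 CPM in MCAO members. Markers of monocyte-derived cells, 11 of 12 found and S100a4 at 0, took 31.2 to 258 and 308 to 594 CPM. Neither list held a gene that could be tested in the members. Over all cells they took 2199.7 to 2468 and 3260.4 to 3418, and 753 to 867 and 1739.7 to 1805 CPM. Choroid plexus and ependymal markers stood at 3572 to 4401 and 2714 to 3359 CPM, most of it Ttr (940 of 985 UMIs), whose level was 11 and 8.97% of that over all cells. Of 3 microglial markers tested Sparc, a matrix protein, rose from 86.7 to 291 CPM (1.78, 0.0199); the 12 summed to 2029 to 3480.2 and 2163 to 2305 CPM, with Sall1, Slc2a5 and Cst7 at 0. Their part in the changes above was not tested. The 6 libraries held 25135690 to 42848023 UMIs, and no barcode of a member was a member in a second library, although pairs of libraries shared 77 to 184 barcodes.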

How the data were processed

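Cells were dissociated with papain (30 min, 37 °C), passed through a 40 µm strainer, separated on 30% Percoll and given a viability stain, and 3' droplet libraries followed, per the labels. The authors deposited raw UMI counts per gene and barcode for each library, aligned with STAR in Cell Ranger to mm10, per the submitters' processing notes, which give no versions; the annotation release is not given in the sources used here. Such counts hold free RNA from broken cells, and no correction for it was made here.

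The members, gene lists and comparisons were chosen with earlier results of these data known. Barcodes were filtered and gated as stated in the report, with Python 3.11.15; doublets were scored by simulated pairs and kept, and removed in an alternative. Counts were summed per library and class. edgeR 4.0.16 (R 4.3.3) was used with its default low-count filter, TMM scaling, robust quasi-likelihood tests and Benjamini-Hochberg adjustment at 0.05. The difference between classes was fitted with a term per library, a class term and a class-by-MCAO term. CPM were set on the same scale for each class. Class II-high over class II-low levels used a pseudocount of 10 CPM to rank genes. Shares used exact Clopper-Pearson intervals at 95%, which cover counting error only, and groups of libraries were compared by exact two-sided permutation.

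Named genes were the 12 highest and 8 lowest called changes at 50 CPM or more on average, groups that did not overlap and at least 0.5 of the library level, the gate and class II genes, up to 4 called genes per direction and the most abundant gene of each list, and up to 6 per direction for the difference; Ftl1, Ccl3, Ccl4 and the genes set between classes were chosen after their values were seen. The highest and lowest changes left out gate genes, markers of other cell types, and mitochondrial, ribosomal protein, hemoglobin and provisional genes. Alternatives were RLE scaling, no filter, DESeq2 1.42.0, stricter gates, thinning to 2000 UMIs, each library left out and the replicate number as a block. Tests were tried on simulated data.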

Additional observations from a re-analysis of the deposited data

Results flagged for a closer look

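For 12 genes outside the gates, the change after MCAO differed between class II-high and class II-low border macrophages by the test of the difference (edgeR, adjusted over 5689 genes). Values are the log2 change in class II-high minus that in class II-low cells. Cd74 differed by -1.49 ± 0.22, adjusted p = 1.45e-08, Fth1 by 1.10 ± 0.20, adjusted p = 7.04e-05 and Hspa1b by 2.75 ± 0.59, adjusted p = 0.00238. Ifi27l2a differed by -2.11 ± 0.27, adjusted p = 5.14e-10, and Tgfbi by 1.41 ± 0.35, adjusted p = 0.0244.

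Chemokine genes were among the others. Ccl12 differed by -1.23 ± 0.25, adjusted p = 0.000469: its mean went from 3404 to 1756 CPM in class II-high and from 2737 to 3671 CPM in class II-low cells. Ccl3 differed by -1.34 ± 0.31, adjusted p = 0.0114 and Ccl4 by -1.47 ± 0.35, adjusted p = 0.0171; both were named after their values were seen. The Fc receptor gene Fcgr4 differed by -2.00 ± 0.50, adjusted p = 0.0244, with means of 364 and 212 CPM in class II-high and 34.8 and 88.1 CPM in class II-low cells.

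The remaining 3 genes rest on few UMIs in class II-high cells. Ptgds differed by 1.81 ± 0.46, adjusted p = 0.0318, on 15 sham and 38 MCAO UMIs. Lpl, lipoprotein lipase, differed by -4.76 ± 1.19, adjusted p = 0.0244, on 5 and 10 UMIs. Mmp12, a macrophage elastase, differed by -10.69 ± 1.46, adjusted p = 5.20e-10, a fitted value that depends on the prior count: all of its 14 sham UMIs were in sham library 3, class II-low cells had 0 in sham, and without that library the difference was -1.59 (1).

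Leaving out sham library 1, Ccl12, Ptgds, Ccl3 and Ccl4 did not pass (adjusted p of 0.0779 to 1). Without sham library 2, Hspa1b, Tgfbi, Ccl12, Ptgds, Lpl, Fcgr4, Ccl3 and Ccl4 did not pass (adjusted p of 0.0782 to 0.899). With sham library 3 left out, Hspa1b, Ptgds, Mmp12, Lpl and Fcgr4 did not pass (adjusted p of 0.175 to 1). Leaving out MCAO library 1, Tgfbi, Ccl12, Ptgds, Lpl, Fcgr4, Ccl3 and Ccl4 did not pass (adjusted p of 0.0941 to 1). Without MCAO library 2, Hspa1b, Tgfbi, Ptgds, Lpl, Fcgr4, Ccl3 and Ccl4 did not pass (adjusted p of 0.0936 to 0.996). With MCAO library 3 left out, Fcgr4 did not pass (adjusted p of 0.124). None of the 12 kept its call under every alternative. With a weight per class in voom, 7 of the 12 lost it, and over the 617 genes testable in members 8 lost it.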

How the results depend on the processing

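The share of kept barcodes that were members (MCAO minus sham, 0.00659 percentage points) turned negative with a class II limit of 10 UMIs (-0.00828), no monocyte UMI (-0.0297), thinning to 2000 UMIs (-0.0144) and a limit of 20 class II UMIs per 10000 (-0.0164, chosen after seeing the data); with a library left out it ran from -0.00855 to 0.0198. The share of border macrophages (0.0993 points) turned negative without doublets (-0.155), at 10 class II UMIs (-0.383), with no monocyte UMI (-0.761), a mitochondrial limit of 5% (-0.0409), thinning (-0.515) and 20 per 10000 (-0.683), and ran from -0.381 to 0.501 with a library left out. Genes higher and lower in members (43 and 40) were 81 and 14 without a filter, 4 and 2 thinned, 19 and 18 at 10 class II UMIs, 20 and 7 at 10 border UMIs, 11 and 3 with no monocyte UMI, 16 and 5 with no microglial UMI and 28 and 22 by DESeq2. They ran from 22 to 53 and from 10 to 54 with a library left out. Genes whose change differed between classes (5 higher, 11 lower) were 3 and 7 without a filter, 0 and 3 thinned, 2 and 8 at 10 class II UMIs, 0 and 0 at 10 border UMIs, 1 and 8 with no monocyte UMI, 3 and 0 with no microglial UMI, 1 and 6 at 20 per 10000, 0 and 5 by DESeq2, and 0 and 2 over the 617 genes tested in members, the last chosen after seeing the data like the voom fit (4 and 10). With a library left out they ran from 2 to 8 and from 5 to 10. Thinning and stricter limits tested fewer genes or cells; otherwise the cause was not tested. H2-K1 reversed when thinned (0.39), the difference for Fth1 with no monocyte UMI (-0.0249), and those for Ccl3 and Ccl4 with no microglial UMI (0.44 and 0.90). RLE scaling changed no call of the 57 results on named genes.

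Same-numbered libraries correlated at -0.146, 0.175 and -0.0222 in the class II-high sums and at -0.0166, 0.0223 and -0.0347 in the class II-low sums. Only number 2 was closest to its own, in both classes. The labels give no day of preparation, and a shared day was not tested. With the replicate number as a block, 39 genes were higher and 34 lower. With 27156 to 91104 UMIs per summed library, 617 genes could be tested, among them 6 of 19 class II presentation genes and 0 of 23 in the matrix and proteases list.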

Other observations

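In the list of inhibitory and immune regulatory receptors, of 6 genes tested in class II-high cells 2 fell (Clec4a3 and Tnfaip8l2) and 0 rose. DESeq2 called 0 of the 6, and over all genes tested 6.48% were lower. Cd83, a surface protein of activated antigen-presenting cells, was found with 20 UMIs in sham and 13 in MCAO members, and Cd80, a costimulatory ligand, with 1 UMI in all. The regulators of class II transcription were near the floor, with 1 UMI of Rfx5, 4 of Rfxank and 3 of Rfxap over the 58 cells. Of 85 ribosomal protein genes tested, 6 fell (7.06%, against 6.48% of all genes tested) and 0 rose.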
